A study of Mus musculus with 20 samples.

Results

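Serotonin genes of the mouse mammary gland were described in 20 glands: the 2 tryptophan hydroxylases Tph1 and Tph2, the decarboxylase Ddc, the transporter Slc6a4, the monoamine oxidases Maoa and Maob, and the receptors Htr1b, Htr2b and Htr7. These 9 genes, of 18194 with a probe set on the array, were taken by their gene symbol on the platform, each through its brightest probe set on average over all 20 arrays. They had 13 probe sets in all, and 5 of the 9 passed the filter on dim genes that 12499 genes passed, which asked for 3 or more arrays above 6.85, the median of the whole table. Tph1 was chosen by its measured difference between animals with and without later tumors in an earlier analysis of the same arrays, so its differences by outcome are given here without a test, and the other 8 genes were added by function.

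Each array held RNA of 1 whole mammary gland from 1 female FVB/N mouse of line 1372-1 TgN(Nrl-tgfalpha)29EPS, read on an Affymetrix array and summarised by the authors as RMA values on a log2 scale, so that a difference of 1 is a doubling. All animals, placebo included, were heterozygous for the NRL-TGFa transgene, in which the neu-related lipocalin promoter drives transforming growth factor alpha, and no gland without the transgene is analysed here. Implants placed at 8.5 weeks of age released 5 mg of tamoxifen, a selective estrogen receptor modulator, or held carrier alone. A number 4 gland with no tumor was removed at 20.5 to 21 weeks, about 4 weeks after treatment had ended, and the animals were then watched for mammary tumors to at most 2 years of age. The groups were tamoxifen with a later tumor (n = 3), tamoxifen without (n = 7), placebo with a later tumor (n = 7) and placebo without (n = 3). Animals are named by treatment and the number in the labels. All 10 genes of an epithelial marker list passed the filter, which 12499 of 18194 genes passed. All 8 genes of a skeletal muscle list and all 6 of a macrophage list passed it too, so passing does not check the labelled tissue. Placebo animals 8, 7 and 9 were lowest on the first principal component, which held 28.7% of the variance, at -63.6, -45.3 and -18.2. Placebo animal 4 came next at -8.8, so animals 7 and 8 stood apart and animal 9 much less clearly. Values without animals 7, 8 and 9 are given beside results that rest on them.

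Serotonin is made from tryptophan by a tryptophan hydroxylase and then Ddc. Tph1 is the hydroxylase of peripheral tissues and Tph2 that of neurons. In the mammary gland serotonin is made by epithelial cells, its synthesis rises with prolactin and with filling of the alveoli, and it acts locally on milk secretion, on tight junctions and on involution, with Htr7 among the receptors described for these effects in mammary epithelium.

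The RefSeq promoter windows of Tph1 are shown because Tph1 was the member whose level varied among the glands. RefSeq (GRCm38.p6) gives 2 start sites for Tph1, 5160 bases apart on the minus strand of chromosome 7. Each window runs 5′ to 3′ from 250 bases before the start to 50 after it, and capitals mark TGACG, the core of the cyclic AMP response element, and CCAAT, the CCAAT box, on either strand (CGTCA and ATTGG in reverse).
Tph1 upstream start, chr7:46672488-46672787: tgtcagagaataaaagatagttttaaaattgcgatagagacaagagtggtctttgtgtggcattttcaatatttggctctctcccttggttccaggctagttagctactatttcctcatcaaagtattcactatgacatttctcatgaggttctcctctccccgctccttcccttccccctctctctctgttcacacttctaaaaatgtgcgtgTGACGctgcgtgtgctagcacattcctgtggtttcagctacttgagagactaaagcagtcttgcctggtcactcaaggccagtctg
Tph1 downstream start, chr7:46667328-46667627: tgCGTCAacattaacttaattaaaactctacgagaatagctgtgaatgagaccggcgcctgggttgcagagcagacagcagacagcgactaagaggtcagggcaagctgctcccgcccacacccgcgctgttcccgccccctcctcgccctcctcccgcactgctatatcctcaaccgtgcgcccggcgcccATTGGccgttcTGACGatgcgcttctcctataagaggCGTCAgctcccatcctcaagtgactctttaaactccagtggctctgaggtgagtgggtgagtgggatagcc
The upstream window had a GC content of 45% and 1 such core, beginning 36 bases before the start. The downstream window had a GC content of 58%, 3 cores, beginning 248, 47 and 21 bases before the start, and 1 CCAAT box in reverse, beginning 58 bases before it. It also held 2 matches of the GC box GGGCGG in reverse, beginning 138 and 117 bases before the start. Among 32851 RefSeq windows of the same length, 20.8% held the core, 37.4% the CCAAT box and 35.7% the GC box. The core also lay in a window of Htr7, Maoa and Slc6a4, and 8 of the 9 genes had a window. Neither Tph1 window, nor any of the 10 serotonin windows, held TTCNNNGAA, the motif bound by Stat5 and other STAT factors, the full element TGACGTCA or the E-box CACGTG, which 8.30%, 1.79% and 7.15% of all windows held. The motifs searched do not overlap in letters except that TGACGTCA contains the core, and a match is a description of letters, not a binding site.

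Tph1 (Entrez 21990, chromosome 7 from 46644641 to 46672537 in GRCm38.p6) had 1 probe set, and its level differed widely between glands. Tamoxifen glands with a later tumor had Tph1 at 6.75, 7.71 and 9.91 in animals 1, 2 and 10. Tamoxifen glands without a later tumor had it at 7.18, 6.12, 6.20, 5.56, 6.15, 6.52 and 6.43 in animals 3 to 9. Within tamoxifen, animals 2 and 10 with later tumors thus lay above every gland without one, and animal 1 did not. In placebo glands with a later tumor the values were 9.81, 7.29, 8.18, 7.19, 8.31, 8.93 and 8.997 in animals 1, 2, 4, 7, 8, 9 and 10. Placebo glands without one had 7.58, 6.38 and 7.38 in animals 3, 5 and 6. The glands highest in Tph1 were thus 1 tamoxifen and 1 placebo gland, both from animals that later had a tumor. The 7 tamoxifen glands without a later tumor lay toward the low end, from 5.56 to 7.18. Tamoxifen animal 1 and placebo animal 5 lay within that range too.

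**Figure D1:**
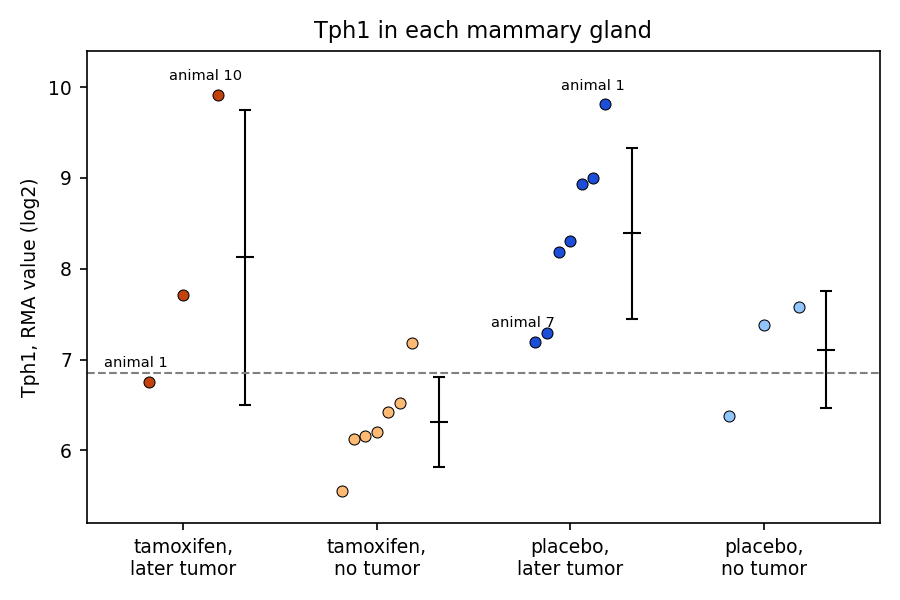
Tph1 in each of the 20 glands, as RMA value on a log2 axis, by treatment and later tumor. Points are single glands, the bars beside them are mean and SD, and the dashed line is the filter level of 6.85. The 7 tamoxifen glands without a later tumor lie between 5.56 and 7.18, and the 7 placebo glands with one between 7.19 and 9.81.

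Over all 20 glands Tph1 spanned 4.36 on the log2 scale, a 20.5-fold range, with an SD of 1.25. That SD ranked 25 among 12499 genes tested, whose median SD was 0.14. A gene chosen by a large outcome difference on these arrays also has a large SD on them, so this rank is a description. Each of the other 8 members varied much less, with ranges from 0.21 to 1.01 and SDs from 0.057 to 0.26. Of these, Tph2, Ddc, Htr2b and Htr7 were below the filter level on every array, where these arrays measure little. Of the serotonin genes, Tph1 alone moved by more than about 1 log2 unit among these glands.

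Tph1 averaged 8.31 ± 1.09 in the glands with a later tumor and 6.55 ± 0.64 in those without (SD, n = 10 each). The difference of 1.76 is 3.38-fold, and it was 1.55 with treatment in the model and 1.83 without placebo animals 7, 8 and 9. All 10 tumor glands lay above the median of the no-tumor glands, and 7 of the 10 lay above every no-tumor gland. Of the 12499 genes tested, 5.79% had all tumor glands on 1 side of that median in either direction. The share of genes with 7 of 10 tumor glands beyond every no-tumor gland was not computed, so how common that is cannot be said. The filter level was passed by 9 tumor glands and by 3 no-tumor glands, so the lower group lay mostly among the dimmer values of the array. In whole-gland RNA, fewer cells of a type and less RNA per cell cannot be told apart. As these values chose the gene, they are a description.

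The same direction was seen inside each treatment, with fewer animals. Among tamoxifen animals Tph1 averaged 8.12 ± 1.62 with a later tumor (n = 3) and 6.31 ± 0.49 without (n = 7), a difference of 1.81. That value rested in part on animal 10: it was 0.92 without this animal and 2.50 without animal 1. Among placebo animals the means were 8.39 ± 0.95 with a later tumor (n = 7) and 7.11 ± 0.64 without (n = 3), a difference of 1.28 that ran from 0.91 to 1.51 as each animal was left out. The groups overlapped in both treatments, since tamoxifen animal 1 lay below tamoxifen animal 3, and placebo animals 2 and 7 lay below placebo animals 3 and 6.

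By mean level the order of the groups was placebo with a later tumor, tamoxifen with a later tumor, placebo without and tamoxifen without. The first pair differed by 0.26 and the second by 1.01, both less than the larger SD of 1.62. The last pair differed by 0.80, more than the larger SD of 0.64, with 2 of 3 placebo glands above all 7 tamoxifen glands. How many of all genes show such a count was not computed. At the ends of this order, tamoxifen glands without a later tumor differed from placebo glands with one by -2.08, which is 4.22-fold lower. These groups of 7 did not overlap, but by a gap of only 0.0109, and 1.45% of all genes tested were separated in this way.

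Treatment was not used to choose Tph1, but tumors were unevenly split between the treatments. The choice by outcome thus also bears on the treatment difference over all glands, and the p of that difference is not free of the choice. Tph1 averaged 6.85 ± 1.23 in tamoxifen glands and 8.01 ± 1.03 in placebo glands (SD, n = 10 each). The difference was -1.15 (SE 0.47, 95% interval -2.13 to -0.17), and 1 of 10 tamoxifen glands lay above the placebo median. By limma this had an unadjusted p of 0.0237 and an adjusted p of 0.277, so Tph1 was not called, and 13.9% of all genes had an unadjusted p under 0.05 in this comparison. With outcome in the model the difference was -0.53 (adjusted p = 0.8125), without tamoxifen animal 10 it was -1.49, and without placebo animals 7, 8 and 9 it was -1.09 (adjusted p = 0.506).

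Within one outcome the intervals for treatment were wide. Among animals with a later tumor the tamoxifen glands differed from the placebo glands by -0.26 (95% interval -1.45 to 0.93, limma adjusted p = 0.93), and it was -0.45 without placebo animals 7, 8 and 9. As single animals were left out, it ran from -1.16 without tamoxifen animal 10 to 0.42 without tamoxifen animal 1. Among animals without one the difference was -0.80 (-1.99 to 0.39, adjusted p = 0.999). The outcome difference in tamoxifen animals minus that in placebo animals was 0.54 (-1.15 to 2.22, adjusted p = 0.94), and it was 0.35 without placebo animals 7, 8 and 9. It turned to -0.36 without tamoxifen animal 10 and was 1.22 without tamoxifen animal 1. Each of these 3 intervals included 0 and reached past 1 in at least 1 direction, so neither a treatment difference of that size nor its absence was shown.

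Tph2 (chromosome 10), the neuronal hydroxylase, stayed below the filter level on all 20 arrays. Tamoxifen glands with a later tumor had it at 3.96, 3.99 and 3.99, and those without ran from 3.81 through a median of 3.94 to 4.01. Placebo glands with a later tumor ran from 3.87 through 3.91 to 4.03, and those without had 3.87, 3.96 and 3.88. All groups overlapped within a span of 0.22.

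Ddc (chromosome 11), which turns 5-hydroxytryptophan into serotonin, was also below the filter level on every array, and so was its other probe set. The values were 5.90, 5.76 and 5.86 in tamoxifen glands with a later tumor and 5.76 to 6.01 (median 5.84) in those without. They were 5.72 to 5.95 (median 5.82) in placebo glands with a later tumor and 5.84, 5.96 and 5.83 in those without. The other synthesis genes thus showed nothing of the spread of Tph1 between glands, at levels where these arrays measure little.

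Slc6a4 (chromosome 11), the transporter that takes serotonin back into cells, passed the filter level on 4 arrays. Tamoxifen glands had 6.75, 6.61 and 6.69 with a later tumor and 6.57 to 6.92 (median 6.78) without. Placebo glands had 6.47 to 7.23 (median 6.68) with a later tumor and 6.72, 6.89 and 6.51 without. The highest value was that of placebo animal 2, and the groups overlapped. Tumor minus no tumor was -0.0013 (95% interval -0.16 to 0.16), and tamoxifen minus placebo was -0.014 (-0.17 to 0.15).

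Maoa and Maob, neighbours on the X chromosome, encode the oxidases that break serotonin and other amines down, Maoa being the one with the higher affinity for serotonin. Maoa had 10.06, 10.04 and 9.89 in tamoxifen glands with a later tumor and 9.72 to 10.09 (median 9.99) in those without. It had 9.99 to 10.26 (median 10.12) in placebo glands with a later tumor and 10.12, 9.61 and 10.00 in those without, where animal 5 was lowest of all. Maoa averaged 10.08 ± 0.11 with a later tumor and 9.96 ± 0.17 without (n = 10 each), a difference of 0.13 (95% interval -0.0039 to 0.26, limma adjusted p = 0.321), and 8 of 10 tumor glands lay above the no-tumor median. Within placebo the difference was 0.21 (adjusted p = 0.338), or 0.060 without placebo animal 5. The second Maoa probe set, above the filter level on 9 arrays, gave 0.12 for tumor minus no tumor, and -0.22 for tamoxifen minus placebo where the first gave -0.07.

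Maob had 10.86, 10.98 and 10.88 in tamoxifen glands with a later tumor and 10.58 to 11.05 (median 10.70) in those without. In placebo glands with a later tumor it ran from 10.24 through a median of 10.68 to 11.14, and those without had 11.17, 11.26 and 10.77. The outcome groups went opposite ways in the 2 treatments without passing a test. Tumor minus no tumor was 0.15 within tamoxifen (95% interval -0.18 to 0.49) and -0.31 within placebo (-0.65 to 0.02), or -0.097 without placebo animals 7, 8 and 9, and the difference of those differences was 0.47 (-0.01 to 0.95, limma adjusted p = 0.938). The lowest Maob values in placebo belonged to animals 8, 7 and 9 at 10.24, 10.51 and 10.63, which are the arrays lowest on the first principal component. Over all glands tumor minus no tumor was -0.05, and it turned to 0.10 without those arrays.

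Htr1b (chromosome 9), an inhibitory G protein-coupled serotonin receptor, was above the filter level on all arrays by its main probe set and below it on all by its other one. Tamoxifen glands had 8.22, 8.25 and 8.22 with a later tumor and 8.10 to 8.37 (median 8.26) without. Placebo glands had 8.10 to 8.44 (median 8.19) with a later tumor and 8.07, 8.27 and 8.12 without. The groups overlapped, with tumor minus no tumor at 0.03 (95% interval -0.07 to 0.13) and tamoxifen minus placebo at 0.02 (-0.09 to 0.12).

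Htr2b (chromosome 1), a receptor that signals through phospholipase C, and Htr7 (chromosome 19), which raises cyclic AMP, were below the filter level on every array. Htr2b had 5.95, 5.59 and 5.70 in tamoxifen glands with a later tumor and 5.58 to 5.93 (median 5.89) in those without, against 5.60 to 5.82 (median 5.76) in placebo glands with one and 5.65, 5.83 and 5.77 in those without. Htr7 had 6.44, 6.49 and 6.51 in tamoxifen glands with a later tumor and 6.38 to 6.52 (median 6.46) in those without, against 6.39 to 6.55 (median 6.502) in placebo glands with one and 6.39, 6.34 and 6.48 in those without. Neither receptor separated any pair of groups, and the second Htr7 probe set was below the filter level on all arrays too.

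**Figure D2:**
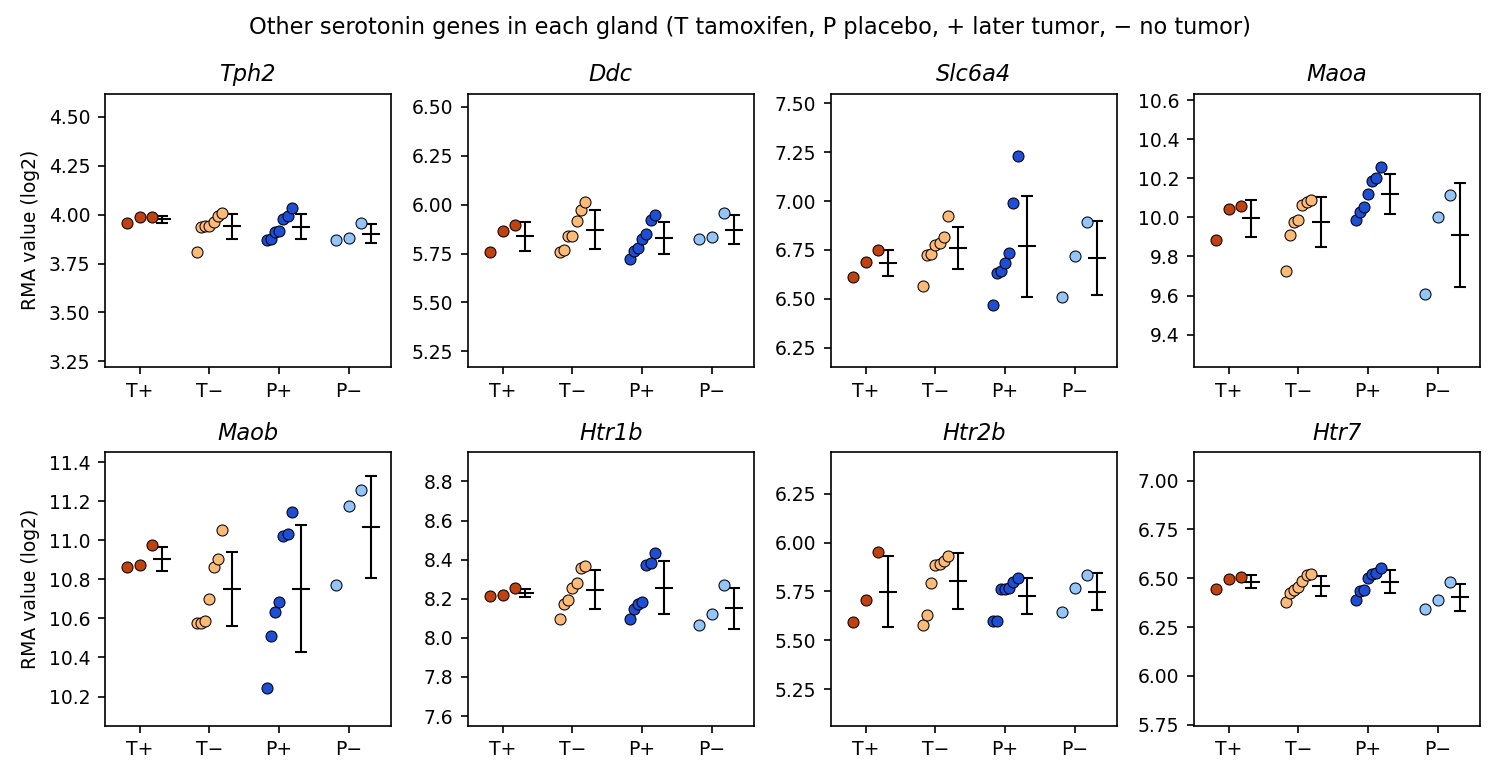
The other 8 serotonin genes in each gland, as RMA value on a log2 axis spanning the same height in every panel. Points are single glands and bars are mean and SD for tamoxifen with a later tumor (T+), tamoxifen without (T−), placebo with a later tumor (P+) and placebo without (P−). The groups overlap in each panel, and no gene spans more than 1.01.

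No serotonin gene was called by limma at an adjusted p under 0.05 where it was tested, which for Tph1 was in the 3 treatment comparisons and the interaction, and for the other genes in all 8 comparisons. In the treatment comparison 0 of 5 members tested were called, where 0.008% of all genes were. In the outcome comparison 0 of the 4 members other than Tph1 were called (0.232% of all genes). Within placebo 0 of 4 were called (0.008% of all genes), and within tamoxifen 0 of 4 (0.008%). For treatment among animals with later tumors the count was 0 of 5 (0.0% of all genes), and among those without it was 0 of 5 (0.064%). The interaction gave 0 of 5 (0.0%). Tamoxifen without a tumor against placebo with one gave 0 of 4, where 4.63% of all genes were called, and the smallest adjusted p was 0.287, for Maoa at -0.14. With so few genes called in most comparisons, these counts are near the background.

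At an unadjusted p under 0.05 a member was found in 2 of the 8 comparisons. The first was Tph1 by treatment, 1 of 5 beside 13.9% of all genes, with a p not free of its choice by outcome. The other was Maoa within placebo at a limma p of 0.0416, 1 of 4 beside 14.1%. The counts were 0 of 4 by outcome (16.5% of all genes), within tamoxifen (2.1%) and for tamoxifen without a tumor against placebo with one (20.4%). They were 0 of 5 for treatment with later tumors (7.0%) and without (5.26%), and for the interaction (4.52%). The dim genes Tph2, Ddc, Htr2b and Htr7 were fitted without the filter over 18194 genes. In that fit 0 of the 4 were called in each comparison, also at an unadjusted p under 0.05. The share of all genes called in it was 0.0769% by outcome, 0.011% by treatment, 0.0055% within placebo, 0.0055% within tamoxifen, 0.0% for treatment with later tumors, 0.055% without, 0.0% for the interaction and 3.14% for tamoxifen without a tumor against placebo with one.

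**Figure D3:**
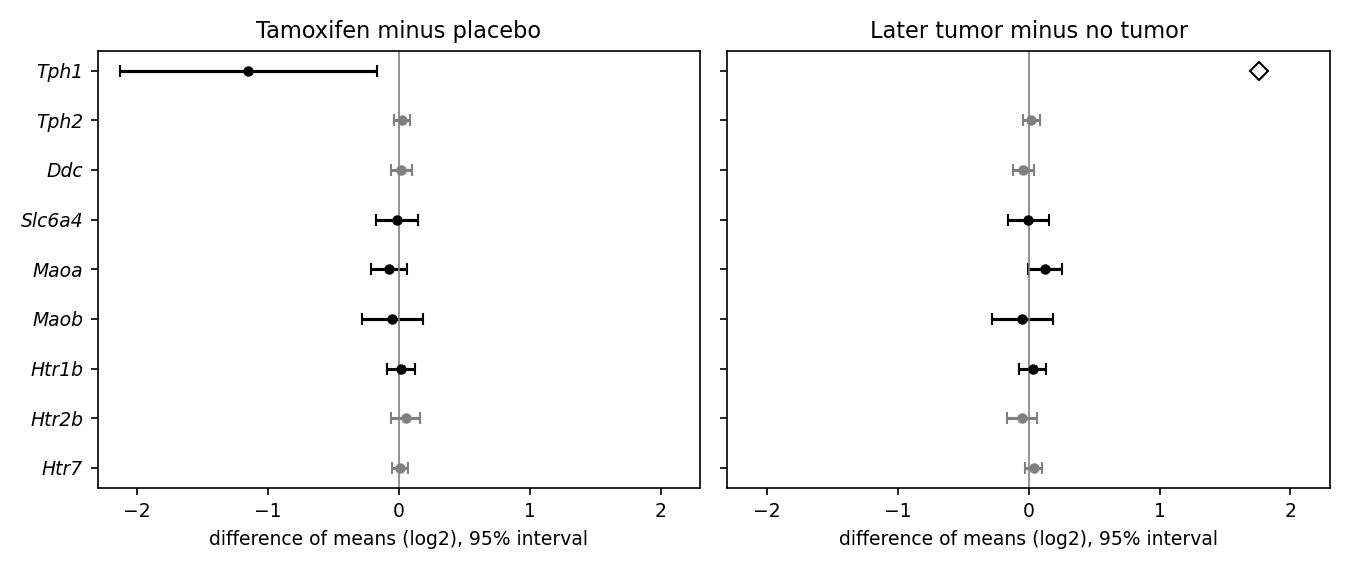
Differences of group means on the log2 scale for the 9 serotonin genes, tamoxifen minus placebo on the left and later tumor minus no tumor on the right, with 95% intervals. Black points are genes that passed the filter, gray points those below it, and the open diamond is the untested outcome difference of Tph1. Tph1 lies at -1.15 and 1.76, and the other 8 genes lie within 0.13 of 0.

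A list of 41 further genes of serotonin and tryptophan handling was set beside the members: cofactor synthesis, vesicle and membrane transport, melatonin synthesis, the kynurenine branch and other receptors. Of these, 36 had a probe set and 22 passed the filter. In the outcome and treatment comparisons 0 of the 22 were called by limma, beside 0.232% and 0.008% of all genes. At an unadjusted p under 0.05 there were 4 by outcome (beside 16.5% of all genes) and 5 by treatment (beside 13.9%). The median differences of the 22 were 0.0044 and 0.0271, against -0.0102 and 0.0011 for all genes tested. Tamoxifen without a tumor against placebo with one gave 3 of 22 higher and 0 lower, beside 4.63% of all genes in either direction. Afmid, the formamidase of the kynurenine branch, averaged 7.02 ± 0.12 in those tamoxifen glands and 6.75 ± 0.13 in those placebo glands, a difference of 0.27 (limma adjusted p = 0.0304; n = 7 each). Tgm2, a transglutaminase that can attach serotonin to proteins, averaged 12.29 ± 0.26 in those tamoxifen glands and 11.84 ± 0.23 in those placebo glands, a difference of 0.45 (adjusted p = 0.0331). Slc22a2, a low-affinity organic cation transporter, averaged 6.97 ± 0.18 in those tamoxifen glands and 6.64 ± 0.20 in those placebo glands, a difference of 0.33 (adjusted p = 0.0427). These 3 calls were lost without placebo animals 7, 8 and 9, where the differences were 0.26 for Afmid (adjusted p = 0.123), 0.34 for Tgm2 (0.301) and 0.27 for Slc22a2 (0.291). No gene of the list was called either when placebo animal 7, placebo animal 8 or tamoxifen animal 5 alone was left out. There the differences of the 3 genes were 0.24 to 0.44 and the limma adjusted p 0.0531 to 0.0951, so the calls lay near the threshold. With the label number as a block Afmid was not called (adjusted p = 0.0938), while Slc22a2 and Tgm2 were. Afmid was also not among the 2 genes called with the mean of all probe sets. The placebo means of Afmid and Slc22a2 lay below the filter level of 6.85. Cell type markers moved in the same comparison: 8 of 11 milk and 6 of 10 epithelial genes were lower, and 6 of 8 muscle genes were higher, in the tamoxifen glands. Without placebo animals 7, 8 and 9 these counts were 8, 1 and 1, and their part in the differences of the 3 genes was not tested.

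Below the threshold, the genes of the list with the smallest p had small differences. Tamoxifen minus placebo was 0.21 for Afmid, 0.24 for Slc22a2, 0.34 for Tgm2, 0.18 for Pts, an enzyme of tetrahydrobiopterin synthesis, and 0.30 for Kmo of the kynurenine branch, with adjusted p of at least 0.138. Slc7a5, a subunit of the carrier that brings tryptophan into cells, averaged 8.70 ± 0.59 in tumor glands and 8.33 ± 0.10 in no-tumor glands, a difference of 0.37 (adjusted p = 0.303). Tumor minus no tumor was -0.22 for Slc22a2 (unadjusted p = 0.0142), -0.16 for Afmid (0.0261) and -0.29 for Tgm2 (0.0294), with limma adjusted p of at least 0.183. Within tamoxifen these differences were -0.050 for Slc22a2, -0.0047 for Afmid and -0.52 for Tgm2. Within placebo they were -0.25, -0.17 and 0.14, so Tgm2 went opposite ways in the treatments, and none of the genes was called in either.

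Genes whose pattern was most like that of Tph1 were taken by Pearson's r over the 20 glands among 12498 genes, as a description without a test, since the glands share their groups. The closest was Cxcl15, a secreted chemokine, at r = 0.92 (rho 0.93), which was 0.87 in residuals from the 4 group means. The gene ranked next was 0.0909 lower in r. Cxcl15 averaged 8.74 in tamoxifen tumor glands, 6.77 in tamoxifen no-tumor glands, 9.47 in placebo tumor glands and 8.28 in placebo no-tumor glands. The r was 0.92 without placebo animals 7, 8 and 9, and 0.91 without the 2 animals farthest from the Tph1 median, tamoxifen animal 10 and placebo animal 1.

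Milk genes made up 4 of the 10 genes most like Tph1. These were the caseins Csn2 (r = 0.83), Csn1s2a (0.81) and Csn1s1 (0.78), and Btn1a1 (0.77), the butyrophilin of milk fat globules. The other five were Mtmr7 (0.83), of a family of lipid phosphatases, Tmed3 (0.82), of a family that carries cargo between endoplasmic reticulum and Golgi, Ern1 (0.79), a sensor of unfolded proteins, Tlcd4 (0.77) and Erp44 (0.76), a chaperone of the secretory pathway. At the other end were Kmt5b (-0.76), a histone methyltransferase, Sun2 (-0.73), of the nuclear envelope, and Fam98c (-0.69). In all, 28 genes had r above 0.7 and 2 below -0.7.

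Within groups, by residuals from the 4 means, the genes most like Tph1 were Cxcl15 (0.87), Tmed3 (0.79), Vps45 (0.79), Ido1 (0.75) and Ctsr (0.74). Ctsr was dim, at a mean of 6.85 in placebo tumor glands, about the filter level, and 5.35 to 5.49 in the other groups. Ido1 is the inducible enzyme that draws tryptophan into the kynurenine branch. Its r over all glands was 0.72, or 0.56 without the 2 farthest animals, and that of Vps45, a vesicle trafficking protein, was 0.49, or 0.29 without them. Ido1 averaged 7.48 ± 1.41 in tumor glands and 6.79 ± 0.55 in no-tumor glands and was not called (adjusted p = 0.442). No other serotonin member came near these values, with r from -0.34 for Ddc to 0.38 for Htr7.

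Levels of cell type marker lists, each as the mean log2 value of its genes, are set beside Tph1. The milk and alveolar list of 11 genes correlated with Tph1 at r = 0.80, at 0.90 without placebo animals 7, 8 and 9, and at 0.61 in residuals. It ran from 8.12 to 9.93 in tamoxifen glands with a later tumor, from 7.76 to 8.31 in those without, from 9.72 to 12.32 in placebo glands with a later tumor and from 8.00 to 9.07 in those without. Of its genes, 6 of 11 were called higher with a later tumor by limma, beside 0.232% of all genes called in either direction. The count was 1 without placebo animals 7, 8 and 9, 0 with treatment in the model, and 1 to 6 as each animal was left out. The epithelial list of 10 genes correlated at r = 0.49 (rho 0.63), and at 0.04 in residuals. Its r was 0.58 without placebo animals 7, 8 and 9, and 0.59 without the 2 animals farthest from the Tph1 median. It ran from 9.26 to 9.51 in tamoxifen glands with a later tumor, 8.64 to 9.73 in those without, 9.48 to 10.60 in placebo glands with one and 8.43 to 9.32 in those without, with 0 of 10 called by outcome (0.232% of all genes) and 8 at an unadjusted p under 0.05 (16.5%). In tamoxifen glands without a later tumor against placebo glands with one, where Tph1 differed by -2.08, 8 of 11 milk and 6 of 10 epithelial genes were lower (4.63% of all genes in either direction). Their part in these differences of Tph1 was not tested.

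Single glands show where Tph1 and milk genes parted. Placebo animal 7 had the second highest milk list level among all glands, 11.15, and the epithelial list at 10.59, but Tph1 at 7.19, the lowest of the placebo tumor glands. Tamoxifen animal 10 had the highest Tph1, 9.91, with the milk list at 9.93. In tamoxifen animal 1, which later had a tumor, Tph1 at 6.75 and the milk list at 8.12 both lay within the range of tamoxifen glands without a later tumor.

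Mast cells and platelets also hold serotonin, and mouse mast cells express Tph1. The mast cell list did not follow Tph1 (r = -0.14). It ran from 7.98 to 8.20 in tamoxifen glands with a later tumor, 7.83 to 8.43 in those without, 7.73 to 8.49 in placebo glands with one and 8.19 to 8.28 in those without. Of its 9 genes 7 were tested, and 0 were called in any comparison, where 0.0% to 4.63% of all genes were. At an unadjusted p under 0.05 there were 0 by outcome (16.5% of all genes) and 1 by treatment (13.9%). With 7 genes, these counts lie near the shares of all genes. Its members Ms4a2 and Fcer1a were below the filter level. The platelet list had r = 0.33, or 0.12 without the 2 farthest animals, and 0.63 in residuals from the group means. It ran from 7.51 to 7.72 in tamoxifen glands with a later tumor, 7.61 to 7.68 in those without, 7.55 to 7.73 in placebo glands with one and 7.57 to 7.63 in those without. Of its 8 genes 6 were tested, and 0 were called by outcome, near the 0.232% of all genes. The skeletal muscle list, which would mark muscle taken with the gland, had r = -0.51 with Tph1. It ran from 7.02 to 9.55 in tamoxifen glands with a later tumor, 7.80 to 12.20 in those without, 6.05 to 8.77 in placebo glands with one and 6.12 to 6.87 in those without. Its 8 genes all had an unadjusted p under 0.05 by treatment (13.9% of all genes) and none was called (0.008% of all genes). In tamoxifen glands without a later tumor against placebo glands with one, 6 of the 8 were called higher, beside 4.63% of all genes in either direction. That count ran from 2 to 8 as each animal was left out. The part of this list in the treatment difference of Tph1 and in its difference of -2.08 was not tested.

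**Figure D4:**
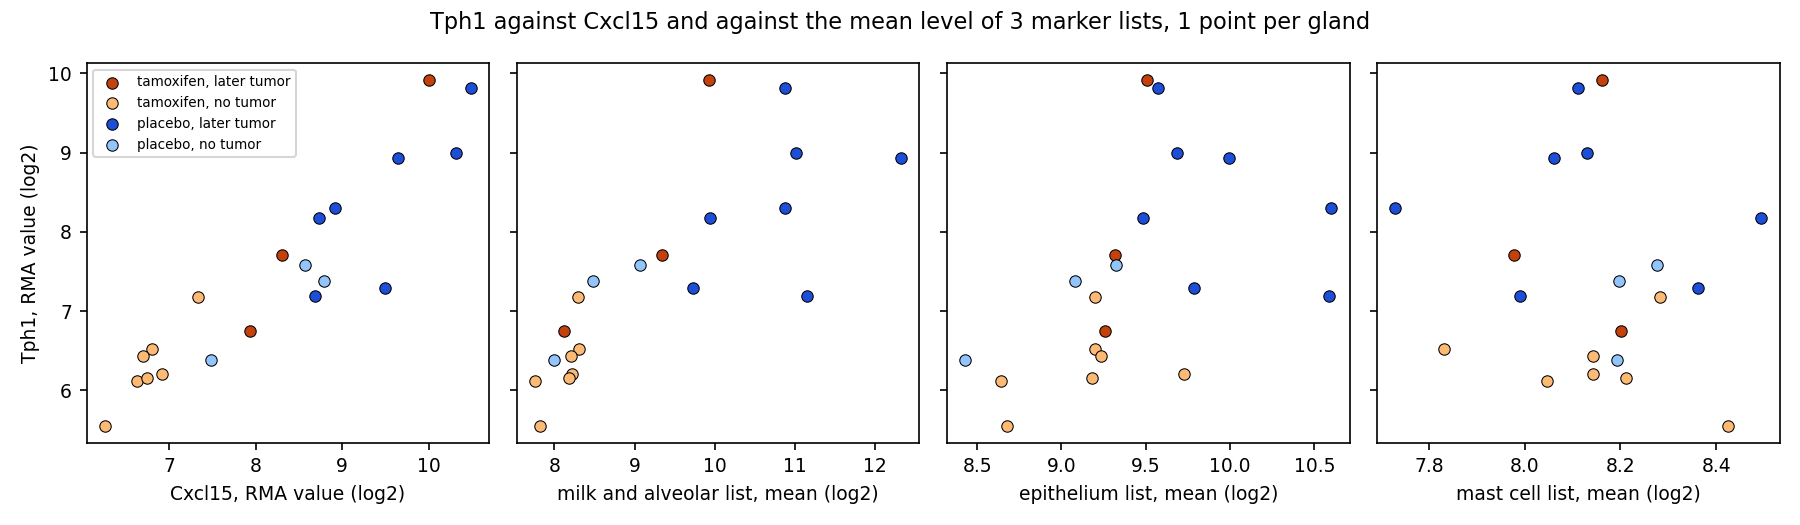
Tph1 in each gland (vertical, log2) against Cxcl15 and against the mean log2 level of the milk and alveolar, epithelial and mast cell lists. Each point is 1 gland, coloured by group. The r over 20 glands is 0.92 for Cxcl15, 0.80 for the milk list, 0.49 for the epithelial list and -0.14 for the mast cell list.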

How the data were processed

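The deposited log2 values per probe set come from RMA, per the submitters' processing notes. Its software version was not stated in the labels or notes used here. RMA gives no detection call and draws arrays to a common distribution. The filter level is a median and no detection limit, so values below it cannot be read as present or absent. Small differences there are read with caution. Probe sets (45101) were named through the platform table, with symbols updated by Entrez ID (34754 of 34958 with 1 symbol). Tests used limma 3.58.1 under R 4.3.3 (lmFit, eBayes, two-sided, Benjamini-Hochberg over all genes tested, threshold 0.05), by outcome and by treatment in all glands, and in a model of the 4 groups for the other comparisons. The procedure was tested on simulated data. The number of arrays limits the precision.

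The members, gene lists, motifs and comparisons were chosen with earlier results of these data known. Named genes were all members, list genes past the threshold or the 6 with the smallest p, the 10 highest and 3 lowest in r with Tph1, and the 5 highest in residual r. Same-numbered animals were not treated as pairs: of 10 pairs by treatment number, 4 correlated over 0.1 in their deviations from the group means. Alternatives covered scaling, filters, probe sets, the variance model, blocks, covariates and left-out animals.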

Additional observations from a re-analysis of the deposited data

Results flagged for a closer look

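In 54 sets, each of the 9 genes in the groups of 7 or 10 glands, a single gland lying far from the rest was looked for by Dixon's criterion, which chance meets in about 1 in 20 sets, and 4 were found. Tph1 stood at 9.91 in tamoxifen animal 10, far above the other tamoxifen glands, and its outcome difference over all glands was 1.58 without this animal, while the other differences that include it are given without it above. Tph2 stood at 3.81 in tamoxifen animal 4, both among all tamoxifen glands and among those without a later tumor, at a level below the filter. Maoa stood at 9.61 in placebo animal 5, below the other placebo glands.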

How the results depend on the processing

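No serotonin gene was called under the alternatives where it was tested, with 1 exception among 226 counts of members, which leave Tph1 out of the comparisons that describe it by outcome. The label number as a replicate block gave 1 member called within placebo, Maob at -0.78 (limma adjusted p = 0.0465), and the numbers were not shown to pair animals (1 of 10 pairs by outcome number and 4 of 10 by treatment number correlated over 0.1). Tph1 kept its direction by outcome and by treatment in all glands under each alternative. These alternatives refit the values by which Tph1 was chosen, and treatment is tied to outcome here. The kept direction is thus a description and adds no support. Counts over all genes moved with the setting. By outcome, 29 genes became 14 with no filter, 45 with a block for numbers 1 to 5 and 6 to 10, 8 without placebo animals 7, 8 and 9, and 0 adjusted for treatment. By treatment, 1 became 11 with centred arrays, 2 with no filter, 0 with the mean of probe sets, 235 with the replicate block, 0 without those 3 animals and 0 adjusted for outcome. Within placebo, 1 became 2 with the mean of probe sets, 602 with the block and 0 without the 3 animals. Within tamoxifen, 1 became 5 with the block and 0 without the 3. For treatment without later tumors, 8 became 3 with the stricter filter, 3 with the block and 14 without the 3. The interaction had 2 in place of 0 with the block, and tamoxifen without tumor against placebo with tumor had 1647 with it and 141 without the 3, in place of 579. Of the 10 genes most like Tph1, 6 stayed without the 3 animals, 4 with the mean of probe sets, 4 by Spearman's rho and 6 without the 2 farthest animals, with Cxcl15 first each time. As each animal was left out, the counts ran from 1 to 118 by outcome, 0 to 110 by treatment, 0 to 60 within placebo, 0 to 7 within tamoxifen, 0 to 1 and 2 to 17 for treatment with and without later tumors, 0 to 3 for the interaction and 295 to 846 for the last comparison. Signs turned for the differences given next, many but not all of them near 0. The larger ones in the main fit included Maob within tamoxifen (0.15), and Tph1 for treatment with later tumors (-0.26) and for the interaction (0.54). Without the 3 animals, Slc6a4 was 0.068 and Maob 0.096 by outcome, Maob -0.065 and Htr1b 0.0093 for treatment with later tumors, and Htr1b 0.027 in the last comparison. With the block, Maoa was -0.032, Maob -0.49 and Htr1b 0.14 within tamoxifen, Maob -0.16 and Htr1b 0.060 for treatment with later tumors, and Slc6a4 0.016 and Maob 0.33 in the last comparison. With centred arrays the last comparison gave Slc6a4 0.0042, Maob 0.012 and Htr1b 0.0029, and the mean of probe sets gave Maoa -0.080 for treatment without later tumors. Leaving out single animals, these differences crossed 0: by outcome Slc6a4 (-0.056 to 0.029) and Maob (-0.086 to 0.014), by treatment Slc6a4 (-0.045 to 0.040) and Htr1b (-0.0017 to 0.039), within placebo Slc6a4 (-0.038 to 0.15), within tamoxifen Maoa (-0.023 to 0.074) and Htr1b (-0.042 to 0.0030), for treatment with later tumors Tph1 (-1.16 to 0.42) and Htr1b (-0.054 to 0.0024), without later tumors Slc6a4 (-0.047 to 0.14) and Maoa (-0.083 to 0.17), for the interaction Tph1 (-0.36 to 1.22), and in the last comparison Slc6a4 (-0.059 to 0.068), Maob (-0.086 to 0.063) and Htr1b (-0.037 to 0.020). The causes were not tested. Groups of 3 glands limit the comparisons within treatment, and Tph2, Ddc, Htr2b and Htr7 were too dim on these arrays for their levels to be read.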
